A study of Mus musculus with 15 samples.

Results

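Expression of the cytochrome P450 genes of families CYP1, CYP2, CYP3 and CYP4 was read in adult mouse liver on the Affymetrix Mouse Genome 430 2.0 array. Members were all genes whose single array symbol begins Cyp1, Cyp2, Cyp3 or Cyp4 followed by a letter, without Cyp2b9, Cyp2b10, Cyp2b13, Cyp2c37, Cyp2c38 and Cyp4a14. This gave 50 of 18193 genes, 3 in CYP1, 30 in CYP2, 5 in CYP3 and 12 in CYP4, each read at its brightest probe set, by the mean over 15 arrays. The rule used names, not measured values, but it was set with earlier results of these data known. The study asked whether liver expression in males exposed to malnutrition around birth is seen again in the sons they fathered. Each array held a pool of whole livers from adult males, and the titles carry a 3 that is taken here to mean 3 livers in a pool. There were 5 groups of 3 pools: control (pools 1 to 3), IUGR F1, males underfed by 50% before birth (pools 4 to 6), ON F1, males overfed while suckling (pools 7 to 9), and the male offspring of both, IUGR F2 (pools 10 to 12) and ON F2 (pools 13 to 15). Control pools mixed males of both generations, so the 2 generations share 1 control group. Strain and exact age were not given in the sources used here. Values are log2 levels made with RMA (robust multi-array average), errors of levels are SD over 3 pools, and errors of differences are standard errors from limma.

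Cytochromes P450 are haem enzymes of the endoplasmic reticulum that insert an oxygen atom into their substrates with electrons from P450 reductase and cytochrome b5. Enzymes of CYP1, CYP2 and CYP3 oxidise drugs, plant compounds, steroids and arachidonic acid, and most CYP4 enzymes hydroxylate the end of a fatty acid chain. In liver they are set by receptors that sense foreign compounds and lipids (the aryl hydrocarbon receptor, the pregnane X and constitutive androstane receptors, and PPARA), by the pulses of growth hormone that differ between the sexes, by the clock, and by the position of the hepatocyte along the lobule.

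The widest differences between groups lay in Cyp2c39, and its closest pattern was that of the neighbouring gene Cyp2c38. Their upstream sequences are therefore shown with that of Cyp2c29, another gene of the same cluster, and with Cyp1a1, the textbook target of the aryl hydrocarbon receptor. Each is the 250 bases before an annotated start, taken from the RefSeq promoter table (GRCm38.p6), which held 38 of the 50 members. Capitals mark a match on either strand to the nuclear receptor motif AGGTCA (Cyp2c29 and the first Cyp2c39 start), to the D-box TTANGTAA (Cyp2c38) or to the aryl hydrocarbon response core GCGTG (Cyp1a1). The table gives 2 starts for Cyp2c39, at chr19:39347096-39347345 and chr19:39510572-39510821, both on the plus strand. Cyp2c29 lies at chr19:39286835-39287084 (plus), Cyp2c38 at chr19:39463076-39463325 (minus) and Cyp1a1 at chr9:57697363-57697612 (plus).
Cyp2c39 start 1: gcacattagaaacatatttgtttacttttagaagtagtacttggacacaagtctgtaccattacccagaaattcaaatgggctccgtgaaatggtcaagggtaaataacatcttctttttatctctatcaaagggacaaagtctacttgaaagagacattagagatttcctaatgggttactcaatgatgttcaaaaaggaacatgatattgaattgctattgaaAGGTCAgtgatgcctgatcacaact
Cyp2c39 start 2: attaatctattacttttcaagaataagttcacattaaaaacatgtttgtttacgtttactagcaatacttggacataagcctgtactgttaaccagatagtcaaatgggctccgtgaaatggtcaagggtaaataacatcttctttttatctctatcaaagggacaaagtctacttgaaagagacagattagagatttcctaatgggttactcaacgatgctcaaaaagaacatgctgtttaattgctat
Cyp2c38: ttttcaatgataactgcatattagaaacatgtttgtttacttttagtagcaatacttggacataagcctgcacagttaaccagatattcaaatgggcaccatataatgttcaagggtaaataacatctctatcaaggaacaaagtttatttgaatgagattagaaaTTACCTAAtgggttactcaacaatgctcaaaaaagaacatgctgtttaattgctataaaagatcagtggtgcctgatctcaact
Cyp2c29: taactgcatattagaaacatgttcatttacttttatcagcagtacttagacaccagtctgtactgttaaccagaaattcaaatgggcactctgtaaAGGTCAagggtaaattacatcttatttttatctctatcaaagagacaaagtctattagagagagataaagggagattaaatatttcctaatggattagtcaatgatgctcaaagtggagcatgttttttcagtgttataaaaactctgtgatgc
Cyp1a1: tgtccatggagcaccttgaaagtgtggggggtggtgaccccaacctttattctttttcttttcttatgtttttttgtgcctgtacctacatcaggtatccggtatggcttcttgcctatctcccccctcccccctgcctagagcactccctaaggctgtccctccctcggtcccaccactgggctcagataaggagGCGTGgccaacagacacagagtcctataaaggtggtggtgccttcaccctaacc
In a global alignment the window of the first Cyp2c39 start was identical with that of Cyp2c38 at 75.8% of alignment columns, with Cyp2c29 at 74.1% and with the second Cyp2c39 start at 71.8%. The receptor motif lay 25 to 20 bases before the first Cyp2c39 start and 154 to 149 bases before that of Cyp2c29. The 38 members had 44 promoters in the table. The receptor motif occurred in 22.7% of these, against 14% of all 32851 promoters, and the aryl hydrocarbon response core in 22.7% against 28.2%. The E-box CACGTG occurred in 4.55% of member promoters against 6.02% of all promoters. The D-box, in 2.06% of all promoters, occurred in 0 member promoters. The direct repeat with a spacing of 1 base was in 0.0335% of all promoters and that with a spacing of 3 bases in 0, and both were in 0 member promoters. These are letter matches and do not show binding.

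No member passed the threshold (limma, Benjamini-Hochberg adjusted p under 0.05 over all genes) in any of 9 comparisons. Against control, 0 of 50 were called in IUGR F1 (0% of all genes), ON F1 (0.022%), IUGR F2 (0%) and ON F2 (0%). Between generations, 0 of 50 were called for IUGR F2 against IUGR F1 (0.011% of all genes) and 0 of 50 for ON F2 against ON F1, where 1.43% of all genes, 261, were called. Of the 6 P450 genes that the rule leaves out, 3 were called lower in ON F2 against ON F1. Between lineages, 0 were called in the first generation (0.011% of all genes), 0 in the second (0.0055%) and 0 in the lineage by generation interaction (0.011%), which is IUGR F2 minus IUGR F1 less ON F2 minus ON F1. An F test over the 5 groups also called 0 members (0.187% of all genes), with Cyp2c39 nearest at an adjusted p of 0.0628.

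At an unadjusted p under 0.05, the 4 comparisons with control held 5, 8, 6 and 3 members in the order IUGR F1, ON F1, IUGR F2 and ON F2. These are 10%, 16%, 12% and 6% of members, against 8.43%, 14%, 7.05% and 15.1% of all genes. The counts were 8 for IUGR F2 against IUGR F1 (16% of members, 11.4% of all genes) and 12 for ON F2 against ON F1 (24%, 19.3%). They were 5 for IUGR F1 against ON F1 (10%, 6.35%), 4 for IUGR F2 against ON F2 (8%, 10.1%) and 6 for the interaction (12%, 7.71%). The 4 comparisons with control share the same 3 control pools.

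Pools of the groups compared did not overlap for 4 members in IUGR F1 against control (8%, with 14.5% of all genes), 6 in ON F1 (12%, with 16.4%), 8 in IUGR F2 (16%, with 13.4%) and 4 in ON F2 (8%, with 21%). The count was 13 for IUGR F2 against IUGR F1 (26%, with 19.2% of all genes), of which 9 were higher and 4 lower in IUGR F2. It was 8 for ON F2 against ON F1 (16%, with 21.4%), 3 for IUGR F1 against ON F1 (6%, with 9.94%) and 7 for IUGR F2 against ON F2 (14%, with 17.1%). Median differences of the 50 members against control were -0.02, 0.01, 0.00 and 0.07 in the order above, against 0.01, 0.02, -0.01 and -0.0026 for all genes.

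**Figure D1:**
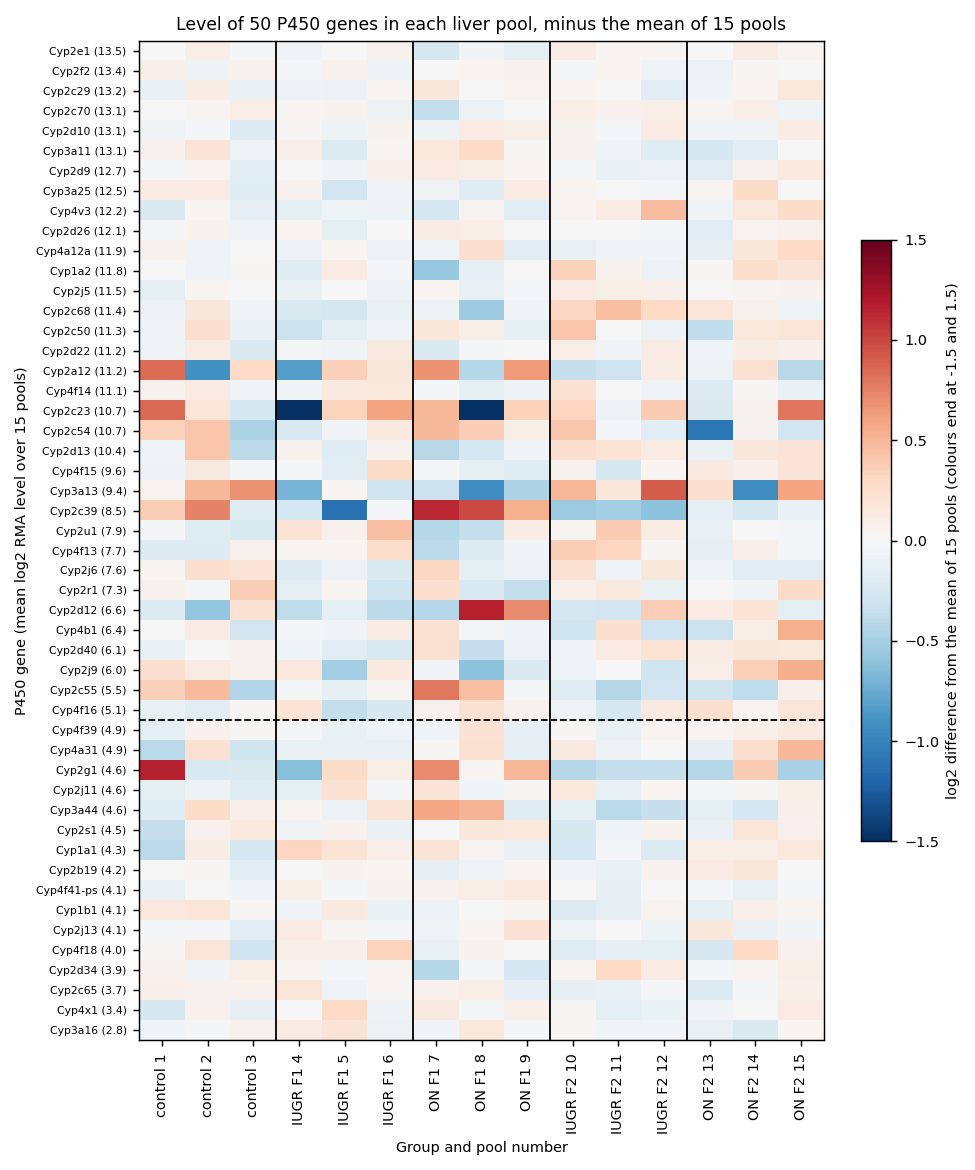
Level of each of the 50 P450 genes (rows, ordered by mean log2 signal, given in brackets) in each pool (columns, by group), as the log2 difference from that gene's mean over 15 pools. Rows below the dashed line have a mean below 5. The strongest colours are in Cyp2c39, Cyp2c23, Cyp2a12, Cyp3a13, Cyp2d12 and Cyp2g1.

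Arrays of all 15 pools were alike, with pairwise correlations across genes between 0.9833 and 0.9954 and 0 identical pairs. The hepatocyte markers, 8 of 10 measured, averaged 13.17 to 13.29 in every pool. Pancreatic acinar markers (8 of 11 measured) averaged 9.34 in ON F2 pool 13 and 5.25 to 5.57 in the other pools, and skeletal muscle markers (7 of 7) averaged 4.77 in IUGR F1 pool 5 and 3.86 to 4.16 elsewhere. The clock output gene Dbp ranged from 5.30 to 10.71, with all ON F1 pools at 5.34 to 6.23. The log2 actin 3' to 5' signal ratio, which rises as RNA shortens, was 1.76 to 2.28. In bulk tissue, fewer cells of a type and less RNA per cell cannot be told apart.

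None of the 12 members with the highest signal was called. They were Cyp2e1, Cyp2f2, Cyp2c29, Cyp2c70, Cyp2d10, Cyp3a11, Cyp2d9, Cyp3a25, Cyp4v3, Cyp2d26, Cyp4a12a and Cyp1a2, with means between 11.81 and 13.47. Their differences from control over the 4 exposed groups lay between -0.22 (Cyp1a2 in ON F1) and 0.31 (Cyp4v3 in IUGR F2). The 95% intervals of these differences reached from -0.52 at the lowest to 0.56 at the highest. Among genes with a mean of 5 or more, 81.8% had a smaller range of group means than Cyp1a2 and 74.0% a smaller one than Cyp4v3. Probe set levels do not rank transcripts by abundance, since each probe set has its own response.

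**Figure D2:**
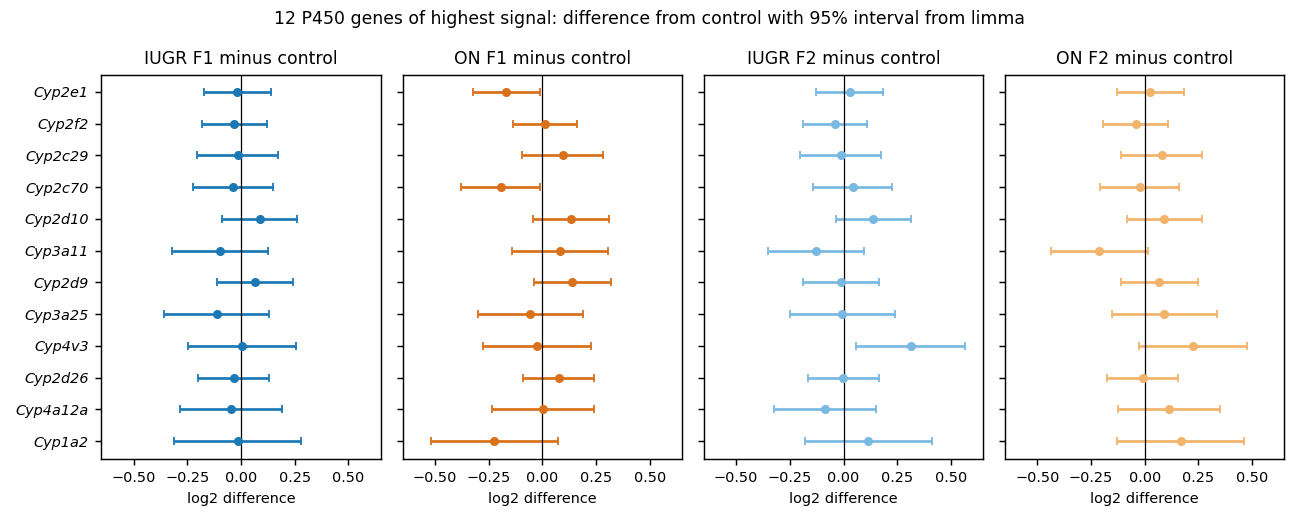
Difference from control (log2, points) with its 95% interval from limma (bars) for the 12 members of highest signal, one panel per exposed group, 3 pools each. The points lie between -0.22 and 0.31, and the interval of Cyp4v3 in IUGR F2 reaches furthest to the right, to 0.56.

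The aryl hydrocarbon receptor genes comprise Cyp1a1, Cyp1a2, Cyp1b1 and Cyp2s1, of which only Cyp1a2 had a mean of 5 or more. Cyp1a2 oxidises caffeine and aromatic amines and is made by hepatocytes around the central vein. Its levels were 11.81, 11.75 and 11.83 in control pools, 11.63, 11.93 and 11.79 in IUGR F1, 11.24, 11.68 and 11.80 in ON F1, 12.16, 11.86 and 11.72 in IUGR F2 and 11.82, 12.07 and 12.00 in ON F2. Pool 7 of ON F1 was lowest, and every ON F2 pool lay above every ON F1 pool. ON F2 exceeded ON F1 by 0.39 ± 0.14 (adjusted p = 0.151, not called), and by 0.22 without pool 7 (adjusted p = 0.405). Pool 7 also had the lowest levels of Cyp2e1 (13.22) and Cyp2c70 (12.76). Cyp2c29 (13.41) and Cyp2c54 (11.14), also genes of central hepatocytes, instead had their highest level of 15 in pool 7. Central vein markers (9 of 10 measured) averaged 8.57 in pool 7, against 8.96 to 9.35 in the other pools. Portal vein markers (7 of 10 measured) averaged 9.08 there, also the lowest of 15. The part of either marker list in these values was not tested. Over 15 pools the patterns most alike to Cyp1a2 were those of Cyp2e1 (r = 0.789), Cyp2c70 (0.739) and Cyp4f13 (0.669), among 58 P450 genes and regulators.

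Cyp1a1, which is induced in liver by dioxins and other aryl hydrocarbons, was dim. Levels were 3.93, 4.42 and 4.05 in control, 4.64, 4.52 and 4.39 in IUGR F1, 4.51, 4.36 and 4.21 in ON F1, 4.05, 4.29 and 4.11 in IUGR F2 and 4.41, 4.41 and 4.48 in ON F2. IUGR F1 and IUGR F2 pools did not overlap, with IUGR F2 lower, at a difference of -0.37 ± 0.12 (adjusted p = 0.299). IUGR F1 lay 0.38 ± 0.12 above control (adjusted p = 0.45), with overlap at control pool 2, and ON F2 lay 0.30 ± 0.12 above it (adjusted p = 0.262), or 0.19 without control pool 1. Changes this far below 5 are compressed by RMA. Cyp1b1, a dim extrahepatic relative, lay 0.22 ± 0.09 below control in IUGR F2 (adjusted p = 0.689), and its second probe set had the opposite sign, 0.08.

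In the CYP2A to CYP2C group, 11 of 19 listed genes were measured and 0 were called in any comparison. In IUGR F1 against control, 10 of the 11 were lower and 1 higher, with a median of -0.17 against 0.01 for all genes. Only 1 of the 11 had an unadjusted limma p under 0.05. The 11 genes averaged 9.05 to 9.46 in IUGR F1 pools and 9.28 to 9.63 in control pools, which overlap. In the same comparison all 11 Kupffer cell markers were lower (median -0.50), averaging 6.42 to 6.48 in IUGR F1 and 6.67 to 7.16 in control. All 6 measured T and NK cell markers were higher, 4 of them dim, averaging 4.78 to 4.82 and 4.62 to 4.64. The part of either list in the shift of the P450 genes was not tested. The medians for ON F1, IUGR F2 and ON F2 were 0.00, -0.02 and -0.05. These enzymes hydroxylate steroids, drugs and arachidonic acid.

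Cyp2c39, a retinoic acid hydroxylase and arachidonic acid epoxygenase, had the widest range of group means, 1.44. Its levels were 8.84, 9.21 and 8.29 in control, 8.20, 7.35 and 8.44 in IUGR F1, 9.59, 9.45 and 9.00 in ON F1, 7.92, 7.95 and 7.85 in IUGR F2 and 8.32, 8.19 and 8.36 in ON F2. ON F1 was the highest group and lay above every pool of IUGR F1, IUGR F2 and ON F2, but overlapped control. Group means ran from 7.90 ± 0.05 in IUGR F2 and 8.00 ± 0.57 in IUGR F1 through 8.29 ± 0.09 in ON F2 and 8.78 ± 0.46 in control to 9.35 ± 0.31 in ON F1.

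Sons of overfed males had a lower Cyp2c39 level than the overfed males, by 1.06 ± 0.25 on the log2 scale (ON F2 against ON F1, adjusted p = 0.0511, not called). IUGR F1 lay below ON F1 by 1.35 ± 0.25 (adjusted p = 0.158). Against control the differences were -0.78 ± 0.25 in IUGR F1 (adjusted p = 0.458), 0.57 ± 0.25 in ON F1 (0.334) and -0.87 ± 0.25 in IUGR F2 (0.596). The interaction was 0.96 ± 0.35 (adjusted p = 0.557). Without IUGR F1 pool 5 the IUGR F1 difference was -0.46 and the interaction 0.64, and without control pool 3 the ON F1 difference was 0.32. The ON F2 against ON F1 difference sat at the threshold. It was called without control pool 2 (adjusted p = 0.0459), control pool 3 (0.0408), IUGR F1 pool 5 (0.0274), IUGR F1 pool 6 (0.0493) or ON F1 pool 9 (0.0387). Among the other pools of the groups compared, it was not called without ON F1 pool 7 (0.146) or 8 (0.0969). Nor was it called without ON F2 pool 13 (0.0983), 14 (0.178) or 15 (0.0802). Over all alternatives its adjusted p ran from 0.0274 to 0.306, the latter with Dbp as a covariate, where the difference was -0.99.

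Other values moved between ON F1 and ON F2. Dbp was 5.34 to 6.23 in ON F1 and 6.54 to 10.71 in ON F2. Portal vein hepatocyte markers (7 of 10 measured) averaged 9.08 to 9.75 in ON F1 and 9.94 to 10.42 in ON F2, and cholangiocyte markers (6 of 8, 4 of them with a mean below 5) 5.13 to 5.15 and 4.71 to 4.87. The part of the marker lists in the Cyp2c39 difference was not tested. Without ON F2 pool 13, which holds the acinar transcripts, the difference was -1.07 (adjusted p = 0.0983).

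The 6 P450 genes outside the rule were read in the same fit. For ON F2 against ON F1, Cyp2b9 fell by 3.04 ± 0.49 (adjusted p = 0.0167), Cyp2b10 fell by 2.15 ± 0.45 (0.0345) and Cyp2c38 fell by 1.33 ± 0.29 (0.0365). Cyp2b10 is the classic target of the constitutive androstane receptor, and Cyp2b9 is a gene of female-type expression in mouse liver. Cyp2b13, Cyp4a14 and Cyp2c37 differed by -0.73, -0.65 and -0.60 and were not called. Over 15 pools the genes most like Cyp2c39 were Cyp2c38 (r = 0.906), Cyp2b9 (0.877) and Cyp2c55 (0.811). These points share arrays and groups, and the r values describe these pools alone. Cyp2c39 and Cyp2c38 are close paralogs, and whether their probe sets read each other's transcript was not tested.

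**Figure D3:**
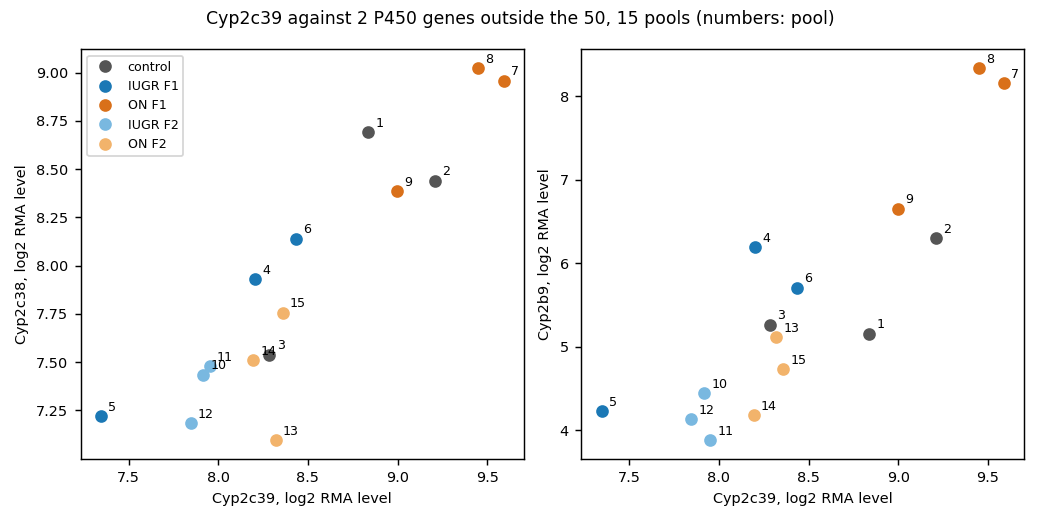
Level of Cyp2c39 (horizontal axis, log2) against that of Cyp2c38 (left) and Cyp2b9 (right) in 15 pools, numbered by pool and coloured by group. ON F1 pools 7 and 8 sit at the upper right of both panels, and the IUGR F2 pools and IUGR F1 pool 5 at the lower left.

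Cyp2c68, another gene of the cluster, had the smallest p of any member after Cyp2c39. Levels were 11.31, 11.56 and 11.34 in control, 11.18, 11.12 and 11.27 in IUGR F1, 11.32, 10.84 and 11.34 in ON F1, 11.70, 11.84 and 11.69 in IUGR F2 and 11.57, 11.45 and 11.33 in ON F2. All IUGR F2 pools were above every pool of the 4 other groups. The difference was 0.55 ± 0.12 from IUGR F1 (adjusted p = 0.183), 0.34 ± 0.12 from control (0.656) and 0.29 ± 0.12 from ON F2 (0.442), none of them called.

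Cyp2c23, the mouse arachidonic acid epoxygenase of older symbol Cyp2c44, and Cyp2a12, a steroid hydroxylase, varied within groups more than between them. Cyp2c23 was 11.57, 10.90 and 10.46 in control, 8.66, 11.06 and 11.31 in IUGR F1, 11.22, 8.98 and 11.07 in ON F1, 11.04, 10.65 and 11.10 in IUGR F2 and 10.50, 10.78 and 11.53 in ON F2. Pools 4 and 8 stood far below the others, and the SD within groups, 0.93, was the highest of the members. Of all genes with a mean of 5 or more, 99.7% had a smaller SD. Cyp2a12 was 12.02, 10.27 and 11.46 in control, 10.35, 11.53 and 11.35 in IUGR F1, 11.85, 10.75 and 11.82 in ON F1, 10.83, 10.87 and 11.29 in IUGR F2 and 11.10, 11.41 and 10.76 in ON F2. Its low pools were 2 and 4, so the low values of the 2 genes coincided in pool 4, and their r over 15 pools was 0.536.

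Cyp2c54, an epoxygenase of central hepatocytes, was 11.00, 11.07 and 10.18 in control, 11.14, 11.02 and 10.74 in ON F1 and 9.57, 10.71 and 10.37 in ON F2. The ON F2 pools lay below the ON F1 pools, with pool 13 lowest, at a difference of -0.75 ± 0.27 (adjusted p = 0.152), and of -0.42 without pool 13 (0.378). Cyp2c55, an epoxygenase and hydroxylase best known from intestine, was 6.26, 5.92 and 5.45 in ON F1 and 5.18, 5.09 and 5.55 in ON F2, with overlap at pool 15, and differed by -0.61 ± 0.22 (adjusted p = 0.154). Cyp2c29, Cyp2c50 and Cyp2c70 had ranges of group means of 0.11, 0.29 and 0.24. The dim members were Cyp2b19, at 4.02 to 4.35, and Cyp2c65, at 3.47 to 3.85.

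**Figure D4:**
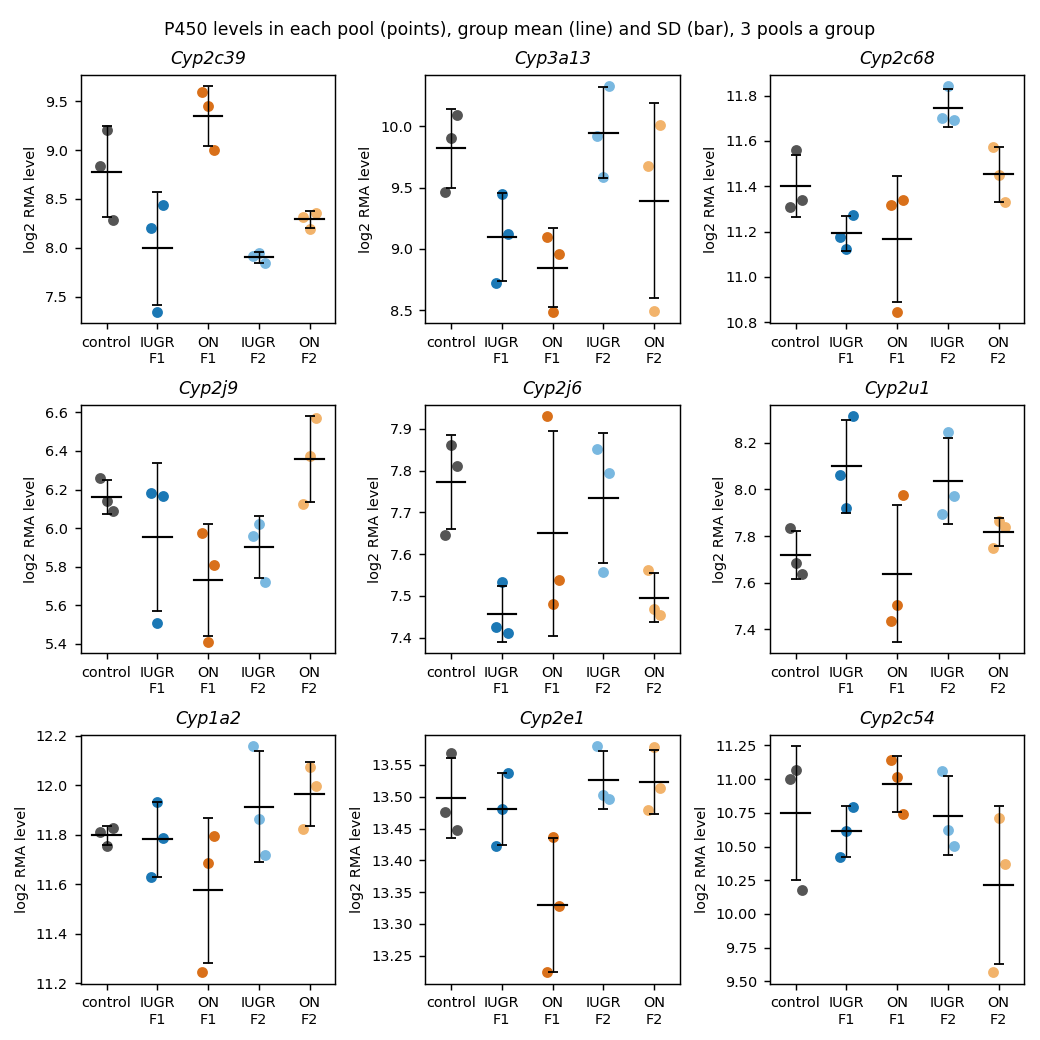
Levels (log2) of 9 members in each of 3 pools per group (points) with the group mean (line) and SD (bar), each panel on its own scale that does not start at 0. Cyp2c39 is highest in ON F1, Cyp2c68 is highest in the 3 IUGR F2 pools, and Cyp3a13 is lowest on average in ON F1, while 1 ON F2 pool is as low.

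In the CYP2D group, 8 of 10 listed genes were measured and 0 were called. Cyp2d9 is a male-type steroid hydroxylase, and Cyp2d10, Cyp2d22 and Cyp2d26 are relatives of human CYP2D6, which oxidises many basic drugs. Cyp2d12 varied most. Its levels were 6.43, 6.05 and 6.85 in control, 6.26, 6.49 and 6.24 in IUGR F1, 6.20, 7.81 and 7.34 in ON F1, 6.39, 6.35 and 7.01 in IUGR F2 and 6.76, 6.85 and 6.50 in ON F2. ON F1 pools 8 and 9 were the 2 highest of 15 while pool 7 was among the lowest. IUGR F1 lay below ON F1 by 0.79 ± 0.31 (adjusted p = 0.718), with a difference of -1.25 without pool 7 and -0.44 without pool 8. Over 15 pools Cyp2d12 had an r of 0.673 with the actin 3' to 5' ratio, and Cyp2d10 0.731. With that ratio as a covariate in the fit of all genes, no member was called in any comparison. The part of RNA length in the values of Cyp2d12 and Cyp2d10 was not tested further.

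Cyp2d34, a dim gene, was 3.48, 3.89 and 3.65 in ON F1 and 3.86 to 4.20 in the other groups. ON F1 overlapped control at pool 8, and the differences were -0.27 ± 0.10 from control (adjusted p = 0.255), and 0.28 ± 0.10 for ON F2 against ON F1 (0.152) and 0.25 ± 0.10 for IUGR F1 against ON F1 (0.723). Without pool 7 these were -0.17, 0.18 and 0.15. The remaining CYP2D genes, Cyp2d9, Cyp2d10, Cyp2d13, Cyp2d22, Cyp2d26 and Cyp2d40, had ranges of group means of 0.11 to 0.43, with Cyp2d13 widest. Cyp2d13 lay between 10.01 and 10.85, and its second probe set had the same pattern (r = 0.915).

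Cyp2e1, the ethanol and acetone oxidising enzyme of central hepatocytes, was 13.48, 13.57 and 13.45 in control, 13.42, 13.48 and 13.54 in IUGR F1, 13.22, 13.44 and 13.33 in ON F1, 13.58, 13.50 and 13.50 in IUGR F2 and 13.48, 13.58 and 13.51 in ON F2. The 3 ON F1 pools were below all control pools, by a mean of 0.17 ± 0.07 (adjusted p = 0.332), and below all ON F2 pools. Cyp2f2, which oxidises naphthalene and marks hepatocytes near the portal vein, had the narrowest range of group means of all members, 0.06. Cyp2g1, known from olfactory tissue, was dim and uneven, from 4.00 in pool 4 to 5.79 in pool 1.

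The arachidonic acid epoxygenases, which make epoxyeicosatrienoic acids that relax vessels, comprised the Cyp2j genes and part of Cyp2c. Of 13 listed, 10 were measured and 0 were called. Cyp2j9 was 6.26, 6.14 and 6.09 in control, 6.18, 5.51 and 6.17 in IUGR F1, 5.98, 5.41 and 5.81 in ON F1, 5.96, 6.02 and 5.72 in IUGR F2 and 6.13, 6.38 and 6.57 in ON F2. All ON F1 pools were below all control and all ON F2 pools. ON F2 exceeded ON F1 by 0.63 ± 0.18 (adjusted p = 0.0817), called without IUGR F1 pool 5 (0.0459). It also exceeded IUGR F2 by 0.46 ± 0.18 (adjusted p = 0.415), and the interaction was -0.68 ± 0.25 (0.557). ON F1 lay below control by 0.43 ± 0.18 (0.305), with a difference of -0.27 without pool 8.

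Cyp2j6 was 7.65, 7.86 and 7.81 in control, 7.42, 7.53 and 7.41 in IUGR F1, 7.93, 7.48 and 7.54 in ON F1, 7.85, 7.56 and 7.79 in IUGR F2 and 7.56, 7.47 and 7.46 in ON F2. IUGR F1 and ON F2 pools lay below all control pools. The differences were -0.32 ± 0.11 in IUGR F1 (adjusted p = 0.475) and -0.28 ± 0.11 in ON F2 (0.266), while IUGR F2 lay 0.28 ± 0.11 above IUGR F1 (0.382). The interaction was 0.43 ± 0.16 (0.557). The second Cyp2j6 probe set gave 0.11 for IUGR F1 against control and -0.0016 for ON F2 against control. It gave -0.01 for IUGR F2 against IUGR F1 and 0.23 for the interaction. The r of the 2 probe sets was 0.403, and they disagree in sign or size on these differences. Cyp2j5, the main hepatic and renal form, ranged from 11.32 to 11.58, and its second probe set correlated with it at 0.242. Cyp2j11 and Cyp2j13 had means below 5 and ranges of group means of 0.19 and 0.14.

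Cyp2u1 hydroxylates long chain fatty acids. It was 7.83, 7.68 and 7.64 in control, 8.06, 7.92 and 8.32 in IUGR F1, 7.43, 7.51 and 7.98 in ON F1, 7.89, 8.25 and 7.97 in IUGR F2 and 7.75, 7.87 and 7.84 in ON F2. IUGR F1 pools lay above all control pools, by 0.38 ± 0.14 (adjusted p = 0.475), and exceeded ON F1 by 0.46 ± 0.14 (0.651), with overlap at pool 9. The second probe set had r = 0.798 and 0.23 for the first of these differences. IUGR F2 pools also lay above all control pools, by 0.32 (not called), and the difference at the second probe set was 0.29. Cyp2r1, a vitamin D 25-hydroxylase, ranged from 6.92 to 7.64, with a range of group means of 0.27. The epithelial form Cyp2s1 ranged from 4.14 to 4.66.

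In the CYP3A group, whose members oxidise a wide range of drugs and steroids, 5 of 9 listed genes were measured and 0 were called. Cyp3a13, a form also abundant in intestine, was 9.47, 9.91 and 10.10 in control, 8.73, 9.45 and 9.12 in IUGR F1, 9.10, 8.49 and 8.96 in ON F1, 9.92, 9.59 and 10.33 in IUGR F2 and 9.67, 8.50 and 10.01 in ON F2. Both first-generation groups lay below all control pools, and IUGR F2 lay above all IUGR F1 pools. Differences were -0.73 ± 0.32 in IUGR F1 (adjusted p = 0.565) and -0.98 ± 0.32 in ON F1 (0.217) against control, and 0.85 ± 0.32 for IUGR F2 against IUGR F1 (0.36). In ON F2, pool 14 was as low as the lowest ON F1 pool while pools 13 and 15 were in the control range.

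Cyp3a11, the main pregnane X receptor target in mouse liver, was 13.16, 13.29 and 13.05 in control, 13.17, 12.89 and 13.14 in IUGR F1, 13.25, 13.38 and 13.11 in ON F1, 13.15, 13.06 and 12.91 in IUGR F2 and 12.84, 12.94 and 13.09 in ON F2. ON F2 pools lay below ON F1 pools, at a difference of -0.29 ± 0.11 (adjusted p = 0.153), and ON F2 lay 0.21 ± 0.11 below control (0.353). The genes most like it over 15 pools were Cyp2c38 (r = 0.873), Cyp4a14 (0.783) and Cyp2d26 (0.772). Cyp3a25 ranged from 12.19 to 12.76. The female-type genes Cyp3a44 and Cyp3a16 were dim, at means of 4.58 and 2.81. Cyp3a44 was 5.15, 5.08 and 4.40 in ON F1 and 4.43, 4.31 and 4.65 in ON F2, a difference of -0.41 ± 0.17 (adjusted p = 0.208). Without ON F1 pool 9 it was -0.65 and called (0.0372), without pool 7 it was -0.27 (0.491) and without pool 8 it was -0.31 (0.403).

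Fatty acid omega hydroxylases were measured for 11 of 19 listed genes and 0 were called. In ON F2 against control, 10 of 11 were higher, with a median of 0.13 against -0.0026 for all genes, and medians in the other groups were 0.04, 0.01 and 0.01. Of the 11, 4 were dim and 1 had an unadjusted limma p under 0.05 in ON F2. The 11 genes averaged 7.31 to 7.58 in ON F2 pools and 7.27 to 7.44 in control pools, which overlap. Cyp4v3, an omega hydroxylase of medium chain fatty acids, was 12.02, 12.26 and 12.10 in control, 12.08, 12.16 and 12.16 in IUGR F1, 11.98, 12.27 and 12.06 in ON F1, 12.27, 12.36 and 12.69 in IUGR F2 and 12.17, 12.38 and 12.51 in ON F2. All IUGR F2 pools exceeded all control and all IUGR F1 pools, by 0.31 ± 0.12 (adjusted p = 0.679) and 0.31 ± 0.12 (0.368). Without pool 12 these were 0.19 (0.95) and 0.18 (0.639). The second probe set followed closely (r = 0.945), with 0.35 and 0.36 for the same differences. Pool 12, the highest for Cyp4v3, also had the highest actin ratio, 2.28, and Cyp4v3 correlated with that ratio at 0.595.

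Cyp4f13 belongs to the CYP4F enzymes, which inactivate leukotrienes and hydroxylate fatty acids. It was 7.52, 7.53 and 7.78 in control, 7.74, 7.75 and 7.98 in IUGR F1, 7.32, 7.52 and 7.67 in ON F1, 8.08, 8.04 and 7.73 in IUGR F2 and 7.60, 7.80 and 7.69 in ON F2. IUGR F2 lay 0.34 ± 0.12 above control (adjusted p = 0.656) and 0.26 ± 0.12 above ON F2 (0.488), with overlap at pool 12 in both. IUGR F1 pools lay above all ON F1 pools, by 0.32 ± 0.12 (0.709). Cyp4f14, Cyp4f15, Cyp4f16 and Cyp4b1 had ranges of group means of 0.17, 0.25, 0.29 and 0.22. Cyp4a12a, a male-type arachidonic acid hydroxylase, ranged from 11.75 to 12.21, with ON F2 pool 15 highest.

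Cyp4a31, a dim relative of the PPARA target Cyp4a14, was 4.46, 5.09 and 4.56 in control and 4.75, 5.11 and 5.36 in ON F2. It differed by 0.37 ± 0.16 (adjusted p = 0.306), between 0.22 without pool 15 and 0.56 without control pool 2, and its second probe set had the opposite sign, -0.13, and an r of -0.363. The remaining CYP4 members, Cyp4f39, Cyp4f18, Cyp4x1 and the pseudogene Cyp4f41-ps, had means of 3.43 to 4.92 and ranges of group means of 0.15 to 0.32.

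Members of 2 sex-biased lists and 2 zonal lists were compared with control. Of the male-type genes Cyp4a12a, Cyp2d9 and Cyp2u1, 0 were called, and medians ran from -0.01 in IUGR F2 to 0.10 in ON F2. Of the female-type genes, 2 of 7 were measured, both dim, and 0 were called. The 6 measured P450 genes of central hepatocytes (Cyp1a2, Cyp2e1, Cyp2c29, Cyp2c50, Cyp2c54 and Cyp3a11) were all below control on average in IUGR F1, with a median of -0.06, and 0 were called. The central vein marker list shares no gene with these 6 but holds Cyp27a1, a P450 gene of another family. Of its 9 measured markers, 7 were lower, with a median of -0.13. The markers averaged 8.96 to 9.05 in IUGR F1 and 9.06 to 9.26 in control, and their part in this shift was not tested. For ON F1, IUGR F2 and ON F2 the medians of the 6 P450 genes were 0.04, 0.01 and -0.01. Those of the central vein markers were -0.16, 0.10 and -0.08. The portal list held only Cyp2f2, which was not called and differed from control by -0.03 in IUGR F1. Of 7 measured portal vein markers, 5 were lower and 2 higher in IUGR F1, with a median of -0.04. Their averages were 9.77 to 9.84 in IUGR F1 pools and 9.33 to 9.79 in control pools.

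Spread between pools was compared with that of other genes. Among the 34 members with a mean of 5 or more, the median SD within groups was 0.154, against 0.129 for the 10363 such genes. The median range of group means was 0.291 against 0.244. The 95% interval of the difference from control lay within 0.5 on either side of 0 for 36, 35, 34 and 35 of 50 members in IUGR F1, ON F1, IUGR F2 and ON F2, and within 1 for 45, 45, 46 and 44. Of the 34 brighter members, pool 7 held the highest value of 15 for 7 and the lowest for 8, pool 10 the highest for 7 and pool 13 the lowest for 7.

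**Figure D5:**
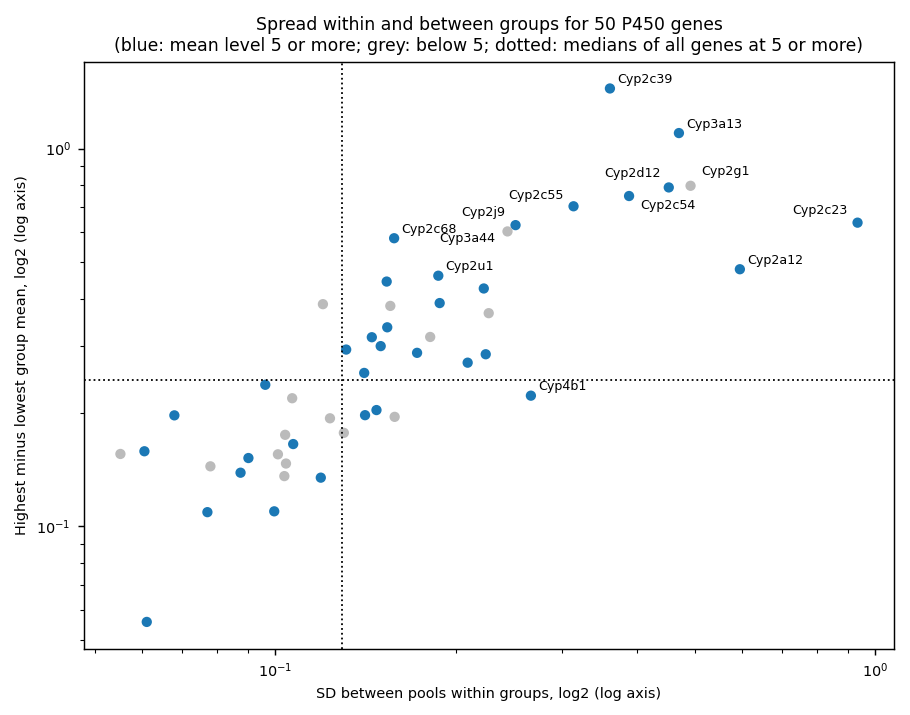
SD between pools within groups (horizontal, log2, log axis) against the highest minus the lowest group mean (vertical, log2, log axis) for the 50 members, blue at a mean of 5 or more and grey below it. Dotted lines give the medians of all genes with a mean of 5 or more, 0.129 and 0.244. Cyp2c39 and Cyp3a13 are highest, at 1.44 and 1.10, and Cyp2c23 and Cyp2a12 are furthest right among genes with a lower range.

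Genes that supply, regulate or follow the P450 enzymes were read from lists. Of the electron donors and haem enzymes, 12 of 14 were measured and 0 were called in any comparison. Alas1, the first enzyme of haem synthesis, ran from 7.80 in pool 6 to 10.86 in pool 2. Of the receptors and factors, 19 of 20 were measured and 0 were called. The pregnane X receptor gene Nr1i2 was 7.23, 7.17 and 7.25 in control and 6.92, 7.00 and 6.71 in IUGR F2, a difference of -0.34 ± 0.13 (adjusted p = 0.683). All 3 IUGR F2 and all 3 ON F2 pools (7.01, 7.05 and 6.73) were below the control pools. So were IUGR F1 pool 5 (6.97) and ON F1 pool 8 (6.94), while the other first-generation pools were at 7.27 to 7.44.

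Conjugating and other drug enzymes, 22 of 23 measured, held 1 called higher and 2 called lower in ON F2 against ON F1 (1.43% of all genes were called there) and 0 called elsewhere. Fmo1, a flavin monooxygenase, fell by 0.58 ± 0.10 (adjusted p = 0.0211), and Sult1b1, a sulfotransferase, fell by 0.68 ± 0.16 (0.0474). Ugt2b35, a glucuronosyltransferase, rose by 0.61 ± 0.13 (0.0361). Of the fatty acid genes raised by PPARA, 14 of 16 were measured and 2 were called, both lower in the same comparison. Vnn1, which makes pantothenate and cysteamine, fell by 1.19 ± 0.27 (0.0459). It was dim, at a mean of 4.67, with 5.69, 6.05 and 4.49 in ON F1 and 4.42, 4.20 and 4.04 in ON F2. The lipid droplet protein gene Plin2 fell by 0.57 ± 0.12 (0.0333). The medians of these lists there were -0.18 and -0.56, against -0.03 for all genes.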

How the data were processed

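Total RNA of 15 pooled mouse liver samples was hybridised to Affymetrix Mouse Genome 430 2.0 arrays, 3 pools in each of 5 groups as the labels give them. The authors deposited log2 levels per probe set. These come from RMA according to the submitters' processing notes, and its version was not given in the sources used here. RMA normalises arrays to each other by quantiles, which removes shifts shared by most genes and compresses changes of dim probe sets. That they are on a log2 scale was inferred from their range, with array medians of 4.60 to 4.68. The number of arrays limits the precision.

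Of 45101 probe sets, 64 controls were left out, 34945 had 1 gene symbol, 932 several and 9160 none, by the platform annotation. Through Entrez identifiers 34741 matched the RefSeq gene table. Each of 18193 genes was read at its probe set with the highest mean, of 9010 genes with several. The members had 61 single-symbol probe sets, and 10 members had more than 1. Another 4 probe sets shared by several symbols of these families, such as those of Cyp2a5, Cyp4a10, Cyp3a41b and Cyp4f37, named no member and were not used here.

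One linear model with 5 group means was fitted to all 15 arrays with limma 3.58.1 in R 4.3.3, with empirical Bayes moderation without a trend (4.69 prior and 10 residual degrees of freedom), two-sided p-values and Benjamini-Hochberg adjustment within a comparison over every gene. The scripts were checked on simulated data. Upstream sequences were aligned with Biopython 1.88, and figures drawn with matplotlib 3.10.9. Genes with values were named by rule: those called, the 5 of smallest p in each comparison, the 12 of highest mean, the 8 with the widest range of group means and the 8 with the largest SD within groups, and role list members with a mean of 5 or more. The further patterns described for Cyp2c23, Cyp2a12, Cyp2c68 and Cyp3a13, the dim Cyp3a44 and Nr1i2 were chosen after their values were seen. The members and lists were chosen with earlier results of these data known. The labels do not say whether pools of 1 group came from separate litters. The p-values then reflect only how these pools vary, which may in part be technical. Alternatives are given in the closing section.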

Additional observations from a re-analysis of the deposited data

How the results depend on the processing

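Of the 9 comparisons and the F test, members were called under an alternative only for ON F2 against ON F1 and in the F test. For ON F2 against ON F1, 1 member was called (Cyp2c39) with dim genes left out, with a trended prior and with array medians subtracted. In the F test 1 was called (Cyp2c39) with array medians subtracted. Leaving out each pool in turn gave 0 to 2 members for ON F2 against ON F1, with 1 without control pool 2 or 3 or IUGR F1 pool 6 and 2 without IUGR F1 pool 5 (Cyp2c39 and Cyp2j9) or ON F1 pool 9 (Cyp2c39 and Cyp3a44). It gave 0 to 1 in the F test, with 1 without control pool 3 or IUGR F1 pool 5. Without pools 5, 8 and 13, chosen after seeing the data, 0 members were called. Of 650 alternative values for 45 member differences, in which single pools were left out only from the groups compared, 646 kept direction and side of the threshold, 4 became called and 0 reversed. Over all genes, the count for ON F2 against ON F1 went from 261 to 439 with array medians subtracted, 101 with array weights, 3 with Dbp as a covariate, 7 with only the 2 groups fitted and 48 without pools 5, 8 and 13. It was 19, 152, 146, 34 and 26 without pools 7, 8, 10, 13 and 14. The F test went from 34 genes to 64 with array medians subtracted, 53 with array weights and 8 with Dbp as a covariate, and to 7 to 40 with a pool left out. The cause was not tested. In the other comparisons, with at most 4 genes called, counts over all genes stayed between 0 and 48, the latter for ON F2 against control with array medians subtracted. No paired analysis was possible because the groups share no replicate numbers. The 16 members with a mean below 5 lie near background, which limits what their differences can show.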
